A study of Homo sapiens with 3 samples.

Results

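The comparison of HKDC1 knockdown with the non-targeting control is described here gene by gene, in PLC, labelled as human liver cancer cells. It sets 1 library labelled shHKDC1 against 1 library labelled NTC, so 2 of the 3 libraries of the series are compared. The third library, labelled shRBBP5, entered only the scaling and the filter on low values, and its levels are given beside the others for orientation. The design text asks whether HKDC1 and RBBP5 regulate gene expression. All 3 cultures were grown in DMEM with fetal bovine serum, and total RNA was extracted with TRIzol. The labels give no hairpin sequence, vector, time after knockdown, clone or pooling, and no agent other than the hairpins.

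HKDC1 is a hexokinase, one of the enzymes that phosphorylate glucose on its entry into glycolysis. It is little expressed in healthy adult liver and is known for its raised levels in liver tumours. RBBP5 is a core subunit of the complexes that methylate histone H3 at lysine 4, a mark of active promoters.

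A feature was measured when its mean level over the 3 libraries reached 1 CPM, counts per unit of scaled library size. By that rule 1015 of 11642 named genes and 12355 of 16301 anonymous loci were measured. A named gene is one whose RefSeq transcripts all had rows of their own, and an anonymous locus is a row that carries an assembly number in place of a gene name. The named genes together took only 0.374% of the table's units in shHKDC1, 0.531% in NTC and 0.439% in shRBBP5, so most of the RNA lies in loci that are described by number. The filter cut the named genes at TAMALIN (0.99994 CPM, outside) and OR2A4 (1.0007 CPM, inside). Of the 10627 named genes outside, 6066 had 0 units in every library. HKDC1 and RBBP5 were not on a named row, and neither were the abundant liver genes ALB and AFP. Neither the loss of the targeted transcript nor the liver identity of the cells was therefore analysed here from them.

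Every ratio below is shHKDC1 over NTC on the log2 scale, followed in brackets by an exact 95% counting interval. A feature was called higher or lower when the ratio was at least 1 in size, a 2-fold difference, and the interval excluded 0. Each group is 1 library, so nothing here was checked against replicates, and the intervals cover counting error only. In a bulk library, fewer cells of a type and less RNA per cell cannot be told apart. Taking 4 units of the table as 1 fragment, the depth was 40437578 fragments in NTC, 28889040 in shHKDC1 and 38633478 in shRBBP5.

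Among named genes with a mean of at least 1 CPM, more were lower than higher in shHKDC1, and without that filter the direction of the counts turned. Of the 1015 measured, 85 were called higher (8.37%) and 235 lower (23.2%), while 695 were neither. The median ratio was −0.39, and its quartiles were −0.95 and 0.18. With no filter on the mean, 557 were higher and 473 lower, with a median of 0. Of the genes below 1 CPM alone, 472 were higher and 238 lower. Protein-coding genes divided in the same proportion, with 76 of 913 higher (8.32%) and 211 lower (23.1%). Among 54 long noncoding RNAs 6 were higher and 10 lower, and among 47 transcribed pseudogenes 3 were higher and 14 lower.

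**Figure D1:**
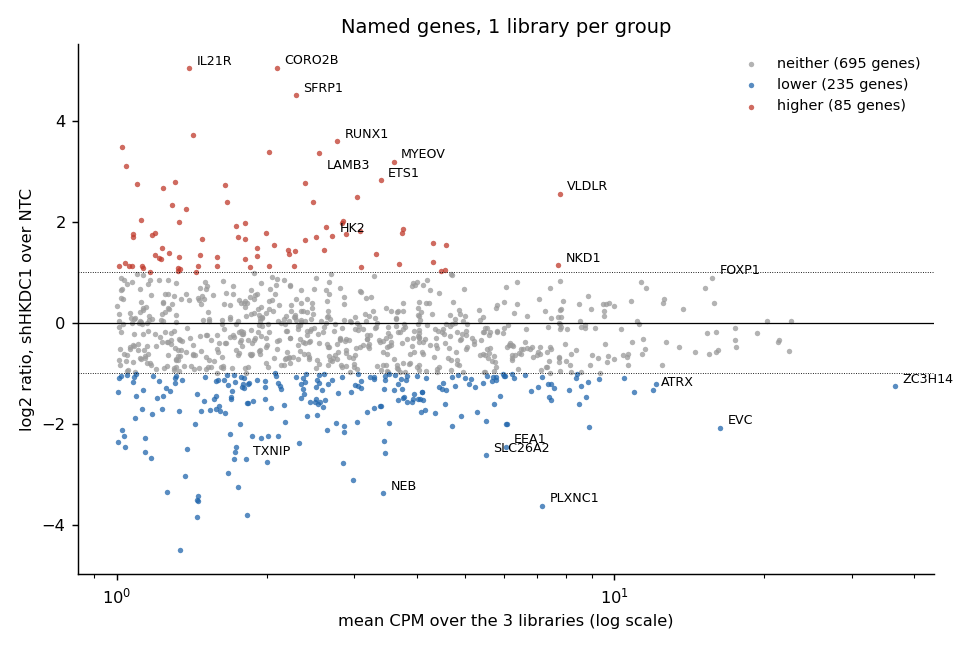
Ratio of shHKDC1 over NTC (log2, y axis) against the mean CPM over the 3 libraries (log scale, x axis) for the 1015 measured named genes, 1 point per gene. Red points are the 85 genes called higher and blue points the 235 called lower, dotted lines mark 2-fold, and the higher calls thin out toward the right, where VLDLR and NKD1 are the only red points above a mean of 5 CPM.

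The 15 coding genes with the highest ratios had varied roles. The actin-binding coronin CORO2B stood at 0.171 CPM in NTC, 5.76 CPM in shHKDC1 and 0.364 CPM in shRBBP5. That is a 32.9-fold difference (log2 5.04 [3.97 to 6.22]), the largest among coding genes with a mean of at least 2 CPM. SFRP1, a secreted inhibitor of Wnt ligands, stood at 0.280 CPM in NTC, 6.44 CPM in shHKDC1 and 0.138 CPM in shRBBP5 (log2 4.51 [3.71 to 5.53]). Both values rest on few fragments in NTC, 8 for CORO2B and 12 for SFRP1, and both genes stood far above the other libraries in shHKDC1.

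RUNX1, a transcription factor of blood formation that is also active in epithelial tumours, had 0.622 CPM in NTC, 7.53 CPM in shHKDC1 and 0.169 CPM in shRBBP5 (log2 3.59 [3.02 to 4.25]). ETS1, the founding member of the ETS transcription factors, had 1.19, 8.40 and 0.570 CPM in the same order of libraries (log2 2.82 [2.38 to 3.29]). RUNX1 and ETS1 are thus both high in shHKDC1 and both lower in shRBBP5 than in NTC. EGR4, an immediate early zinc finger factor, had 0.999, 5.27 and 1.17 CPM (log2 2.40 [1.89 to 2.91]).

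LAMB3, a chain of the basement membrane laminin 332, had 0.559 CPM in NTC, 5.79 CPM in shHKDC1 and 1.3 CPM in shRBBP5 (log2 3.36 [2.78 to 4.09]). THBS1, the matrix glycoprotein thrombospondin 1, had 1.34, 5.24 and 1.94 CPM (log2 1.97 [1.53 to 2.45]). NT5E, the surface enzyme CD73 that makes adenosine, had 1.12, 6.26 and 1.72 CPM (log2 2.48 [2.02 to 2.98]). For these 3 genes shRBBP5 also lay above NTC, by far less than shHKDC1 did. SSTR2, a somatostatin receptor, had 1.284, 5.19 and 2.08 CPM (log2 2.01 [1.56 to 2.50]), and GCNT3, which branches mucin-type sugars, had 1.21, 4.52 and 2.16 CPM (log2 1.90 [1.42 to 2.40]).

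VLDLR, the very low density lipoprotein receptor, had the highest CPM of this end (CPM is not scaled for transcript length, so an order of CPM is no order of transcript number), at 3.11 CPM in NTC, 18.3 CPM in shHKDC1 and 1.92 CPM in shRBBP5. Its interval was correspondingly narrow (log2 2.55 [2.28 to 2.84]). AGPAT4, which makes phosphatidic acid, had 0.485, 5.12 and 0.451 CPM (log2 3.39 [2.74 to 4.15]). The other 3 of the 15 highest were MYEOV (log2 3.18), PASD1 (2.78) and the adaptor SH3BP2 (1.86). The 15 ran from 4.52 to 18.3 CPM in shHKDC1 and from 0.171 to 3.11 CPM in NTC. They were chosen by this ratio, and most reached a mean of 2 CPM through the shHKDC1 library, so the low NTC levels and the place of shHKDC1 above the others largely follow from the choice.

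At the other end, PLXNC1, a plexin receptor for semaphorin 7A, stood at 10.3 CPM in NTC, 0.832 CPM in shHKDC1 and 10.3 CPM in shRBBP5, a 12.3-fold difference (log2 −3.62 [−4.28 to −2.98]). Its NTC and shRBBP5 levels were nearly equal, so the low value belongs to shHKDC1 alone among the 3 libraries. NEB, the giant muscle protein nebulin, had 8.15, 0.784 and 1.36 CPM in NTC, shHKDC1 and shRBBP5 (log2 −3.37 [−4.12 to −2.75]), and was low in both knockdown libraries. MAP2K6, the kinase upstream of p38, had 4.10, 0.600 and 3.85 CPM (log2 −2.77 [−3.57 to −1.99]).

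SLC26A2, a sulfate transporter needed for proteoglycan sulfation, had 10.1 CPM in NTC, 1.64 CPM in shHKDC1 and 4.85 CPM in shRBBP5 (log2 −2.62 [−3.12 to −2.17]). EEA1, the tether of early endosomes, had 10.8, 1.97 and 5.40 CPM (log2 −2.45 [−2.90 to −2.03]). SEC31B, a coat protein of vesicles leaving the endoplasmic reticulum, had 4.86, 0.813 and 4.68 CPM (log2 −2.57 [−3.30 to −1.93]). In SLC26A2 and EEA1 the shRBBP5 level fell between the others, while in SEC31B it was close to NTC. EVC, a protein at the base of the cilium that transmits Hedgehog signals, had the highest CPM of the 15 lowest, at 26.8, 6.35 and 15.8 CPM (log2 −2.08 [−2.32 to −1.84]).

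BAAT, which joins bile acids to glycine or taurine, stood at 3.74 CPM in NTC, 0.832 CPM in shHKDC1 and 4.02 CPM in shRBBP5 (log2 −2.16 [−2.85 to −1.49]). MOGAT3, an enzyme of diacylglycerol synthesis, had 5.75, 1.4 and 1.4 CPM (log2 −2.03 [−2.59 to −1.54]), the same low level in both knockdown libraries. The remaining 6 were the sodium channel subunit SCNN1D (log2 −2.38), the ciliary FAM161A (−2.33), the lipid flippase ATP8A1 (−2.24), ANKRD26 (−2.11), COBLL1 (−2.06) and ZNF292 (−2.03). These 15 were likewise chosen by the ratio to NTC. The shHKDC1 level was also below shRBBP5 in each, although in MOGAT3 the knockdown libraries were equal to 3 digits. Their levels ran from 3.03 to 26.8 CPM in NTC and from 0.600 to 6.35 CPM in shHKDC1. In 12 of the 15 shRBBP5 was also below NTC, and among the 15 highest genes it was below NTC in 7 and above in 8. Both ratios use the same NTC library.

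**Figure D2:**
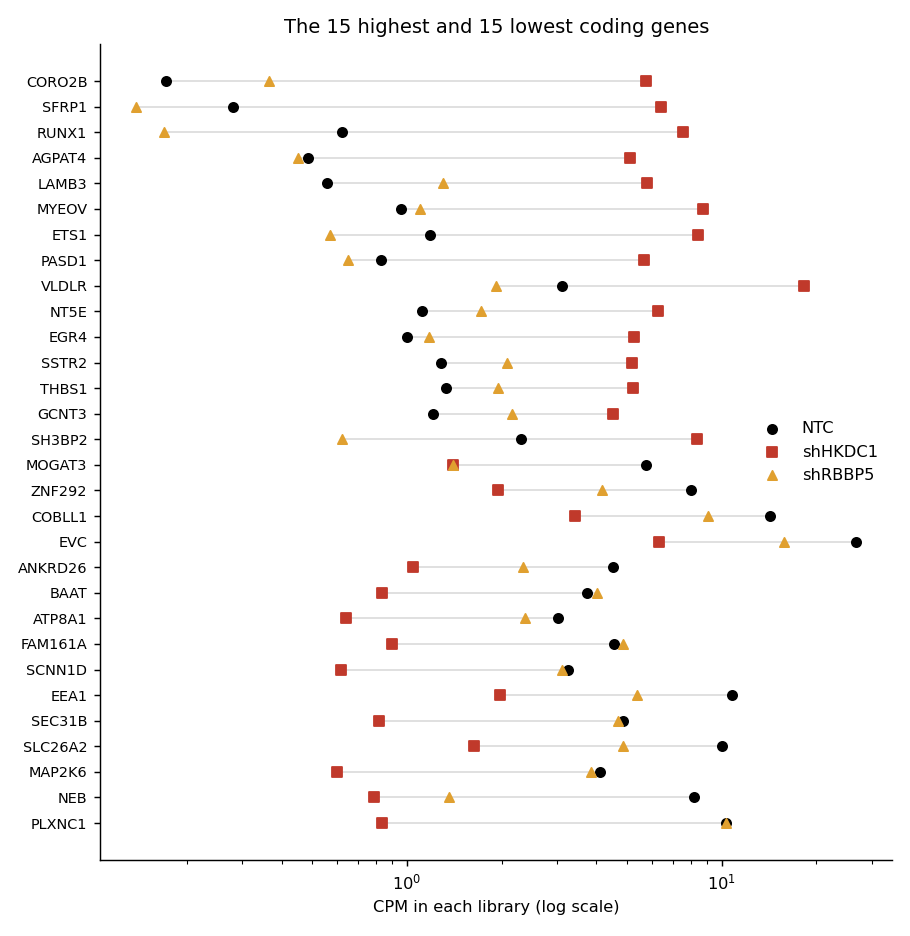
CPM (log scale, x axis) of the 15 coding genes with the highest and the 15 with the lowest ratios among called genes with a mean of at least 2 CPM, 1 symbol per library. The squares of shHKDC1 lie to the right of both other libraries for the upper 15 genes and to the left for the lower 15, with MOGAT3 all but tied with shRBBP5. The genes were chosen by the ratio of shHKDC1 to NTC.

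The region just before the start of VLDLR, the gene of highest CPM among the 15 highest ratios, and that of PLXNC1, the gene of lowest ratio, are shown as RefSeq gives them on GRCh38.p14, using the first promoter listed for each symbol. Each run covers the 250 bases before the start site, 5′ to 3′ on the gene's strand. Capitals in these 2 runs mark GGGCGG, the core of the GC box, and, in PLXNC1, TGANTCA, a pattern that takes in the AP-1 site, on either strand. VLDLR lies at chr9:2621537-2621786 on the plus strand and PLXNC1 at chr12:94262369-94262618 on the plus strand.
VLDLR: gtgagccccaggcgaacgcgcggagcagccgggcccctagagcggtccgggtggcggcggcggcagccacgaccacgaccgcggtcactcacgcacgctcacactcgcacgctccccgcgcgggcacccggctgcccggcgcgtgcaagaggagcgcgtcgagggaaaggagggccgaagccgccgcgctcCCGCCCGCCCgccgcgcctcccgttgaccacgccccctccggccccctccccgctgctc
PLXNC1: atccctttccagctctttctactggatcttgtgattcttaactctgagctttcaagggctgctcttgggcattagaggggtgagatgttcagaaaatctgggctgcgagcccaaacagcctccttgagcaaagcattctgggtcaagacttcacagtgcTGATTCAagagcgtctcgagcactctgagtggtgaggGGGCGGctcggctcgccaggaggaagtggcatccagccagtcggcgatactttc

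The GC boxes of VLDLR overlap each other, starting 59 and 55 bases before the start site. In PLXNC1 the GC box starts at 54 and the TGANTCA match at 91 bases before it. That match reads TGATTCA, with T at the open position, where the usual AP-1 site has C or G. Such matches are frequent, and a match is no evidence of binding. GGGCGG was found in 44.6% of 27305 RefSeq promoters (250 bases before to 50 after the start), in 70.2% of the 57 higher genes with an entry, 66.1% of the 186 lower genes and 65.7% of the 531 called neither. TGANTCA was found in 7.76% of all promoters, 6 of the 57, 7 of the 186 and 25 of the 531. In all, 774 of the 1015 genes had an entry and 10 motifs were searched on both strands. Of the other 8, the E-box motif CACGTG occurs in 7.43% of all promoters and stood in 5 of the 57 higher, 24 of the 186 lower and 39 of the 531 remaining genes. The shares of all promoters were 11.95% for TATAAA and 1.98% for the motif TGACGTCA of CREB factors. They were 10.7% for CCGGAAG, an ETS site, and 13.1% for TGTGGT, the core of RUNX sites. GACGTG stood in 7.89%, and CCAAT and a pair of sites are described with TXNIP. CCGGAAG stood in 4 of the 57 higher, 16 of the 186 lower and 80 of the 531 remaining genes. In the same order the counts were 6, 18 and 52 for TGTGGT and 4, 7 and 29 for TATAAA. They were 1, 6 and 16 for TGACGTCA and 5, 15 and 44 for GACGTG. No difference between the shares of higher, lower and other genes was tested.

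Glucose metabolism was covered by few named genes. HK2, the hexokinase that many tumour cells express, stood at 1.69 CPM in NTC, 5.59 CPM in shHKDC1 and 0.840 CPM in shRBBP5 (log2 1.73 [1.31 to 2.15]). It was the only measured one of 3 hexokinases with rows. Of 11 glycolysis and pyruvate genes with rows, 2 were measured. PKLR, the liver pyruvate kinase, had 1.49, 0.126 and 2.74 CPM (log2 −3.53 [−5.99 to −2.06]), and PDK4, which switches off pyruvate oxidation, had 1.94, 1.12 and 0.439 CPM and was not called (log2 −0.79 [−1.45 to −0.17]). HK2 was thus highest and PKLR lowest in shHKDC1 among the 3 libraries, PKLR on 3 fragments.

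TXNIP, which restrains glucose uptake and whose transcription is known to follow glucose supply, was looked up after its value had been seen. It stood at 1.64 CPM in NTC, 0.252 CPM in shHKDC1 and 3.55 CPM in shRBBP5 (log2 −2.69 [−4.32 to −1.63]). The order of the libraries was the same as for PKLR, with shRBBP5 highest and shHKDC1 lowest. Its relative ARRDC4 missed the filter, at 0.799, 0.290 and 0.508 CPM (log2 −1.45 [−2.69 to −0.23]). The 250 bases before the start of TXNIP, at chr1:145996580-145996829 on the minus strand of GRCh38.p14, hold a pair of sites spelled like those of carbohydrate response elements. Capitals mark this pair, CACGNG and CNCGNG with the 5 bases between them, which starts 88 bases before the start site, and CCAAT on either strand, which starts at 140 and 105 bases before it.
TXNIP: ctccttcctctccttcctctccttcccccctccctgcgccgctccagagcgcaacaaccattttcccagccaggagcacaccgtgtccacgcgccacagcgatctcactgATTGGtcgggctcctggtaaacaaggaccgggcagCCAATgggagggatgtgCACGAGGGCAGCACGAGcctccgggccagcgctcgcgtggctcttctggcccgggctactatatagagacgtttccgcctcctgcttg

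The paired motif, chosen for search because of TXNIP, stood in 0.524% of all promoters. Among genes called lower it was in 3 of 186, TXNIP, the centrosomal CEP162 (log2 −1.57) and THNSL1 (−1.52). It was in 0 of 57 genes called higher and in 3 of 531 called neither. CCAAT was found in 35.7% of all promoters, in 20 of the 57, 78 of the 186 and 206 of the 531.

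Of 48 coagulation, complement and secreted liver proteins with rows 6 were measured. Of these 5 were lower (83.3%) and 1 higher, against 23.2% lower and 8.37% higher among all measured named genes, and the median ratio was −1.94 against −0.39. The lists below are read against the same background. F5, coagulation factor V, had 3.49 CPM in NTC, 0.987 CPM in shHKDC1 and 3.10 CPM in shRBBP5 (log2 −1.82 [−2.45 to −1.19]). FGB, the beta chain of fibrinogen, had 2.41, 0.600 and 2.30 CPM (log2 −2.0 [−2.82 to −1.20]). C8A, a chain of complement component 8, had 1.65, 0.290 and 2.21 CPM (log2 −2.49 [−3.67 to −1.35]). In each of these shHKDC1 stood below both other libraries. SPP1, osteopontin (log2 −3.03 [−4.60 to −1.93]), and SERPINA5, the protein C inhibitor (−1.87 [−2.91 to −0.91]), were lower as well.

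Among 6 measured drug and steroid enzymes 3 were lower and 0 higher (median −0.80), against 23.2% lower, 8.37% higher and a median of −0.39 among all named genes. They were CES3, a carboxylesterase (5.36, 2.44 and 3.62 CPM, log2 −1.13 [−1.56 to −0.73]), the retinoic acid hydroxylase CYP26A1 (3.62, 1.45 and 1.34 CPM, −1.32 [−1.84 to −0.78]) and the fatty acid hydroxylase CYP4F3 (1.69, 0.261 and 1.56 CPM, −2.68 [−4.00 to −1.53]). CYP26A1 was low in both knockdown libraries, CYP4F3 only in shHKDC1. UGT2B4 (−0.47 [−1.04 to 0.06]), CYP2S1 (−0.04 [−0.59 to 0.52]) and SULT1E1 (0.47 [−0.03 to 0.95]) were not called.

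Lipid genes were found on both sides. Of 11 measured genes of fatty acid, sterol and lipoprotein metabolism, VLDLR and AGPAT4 were higher and 5 lower (median −0.54). The shares were 18.2% higher and 45.5% lower, against 8.37% and 23.2% of all named genes. Among the 5 lower genes were BAAT, MOGAT3, BDH1 and the fatty acid elongase ELOVL4 (log2 −1.1 [−1.87 to −0.38]). BDH1, which interconverts the ketone bodies, had 2.94 CPM in NTC, 0.271 CPM in shHKDC1 and 1.15 CPM in shRBBP5 (log2 −3.42 [−4.78 to −2.36]). BDH1 was thus lowest in shHKDC1, with shRBBP5 between the others. The acyl-CoA synthetases ACSS3 (0.23 [0.00 to 0.46]) and ACSL1 (−0.34 [−0.77 to 0.08]), the receptor LRP12 (0.41 [0.13 to 0.69]) and PNPLA7 (−0.54 [−1.16 to 0.01]) were not called.

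Among 14 solute carriers 6 were lower (42.9%) and 0 higher (median −0.51), against 23.2% and 8.37% of all named genes. SLC16A10, which carries aromatic amino acids, had 10.7 CPM in NTC, 3.51 CPM in shHKDC1 and 11.3 CPM in shRBBP5 (log2 −1.60 [−1.94 to −1.27]), and the organic anion carrier SLCO2B1 had 4.42, 1.91 and 4.68 CPM (−1.21 [−1.71 to −0.76]). SLC60A2, the highest in CPM of the 14 at 20.6 CPM in NTC, was not called (−0.48 [−0.65 to −0.30]). Of 13 ion channel genes 4 were lower (30.8%) and 1 higher (7.69%), shares near those of all named genes. Lower ones were SCNN1D and the potassium channel subunit KCNMB4 (2.25, 0.377 and 2.56 CPM, log2 −2.56 [−3.64 to −1.59]). CLIC2, a chloride channel family member, was the higher gene (0.576, 1.96 and 0.683 CPM, log2 1.76 [1.07 to 2.54]).

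Genes of the endosome, lysosome and membrane traffic had 11 lower (50%) and 0 higher calls among 22 measured members, against 23.2% and 8.37% of all named genes (median −1.02 against −0.39). Besides EEA1 and SEC31B these included VPS13A, a bridge that moves lipids between membranes (10.5, 2.62 and 4.99 CPM, log2 −2.01 [−2.39 to −1.63]), and its relative VPS13B (9.45, 4.47 and 7.48 CPM, −1.08 [−1.38 to −0.77]). The Rab exchange factor DENND3 (−1.06), the vesicle priming factor UNC13A (−1.50) and SYTL4 (−1.05), a Rab27 effector, were also lower. RABGAP1L (−0.77 [−1.06 to −0.49]), TBC1D31 (−0.58 [−0.86 to −0.30]), DENND1B (−0.62) and UNC13C (−0.97) were below 0 but not called.

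Cilium and flagellum genes had 14 lower (41.2%) and 0 higher calls among 34 measured, against 23.2% and 8.37% of all named genes (median −0.84 against −0.39). This list was drawn by symbol and includes coiled-coil and repeat families whose members are not all ciliary. TTBK2, the kinase that starts cilium assembly, had 7.34 CPM in NTC, 3.55 CPM in shHKDC1 and 7.13 CPM in shRBBP5 (log2 −1.05 [−1.4 to −0.71]), and the centrosomal CEP112 had 6.58, 3.06 and 5.77 CPM (−1.1 [−1.48 to −0.74]). CCDC57 (−1.08), CCDC186 (−1.50) and WDR72 (−1.69) completed the lower members of high CPM beside EVC. CEP78 (24.6, 18.8 and 20.5 CPM, −0.39), TTC7B (−0.34), AHI1 (−0.52) and the intraflagellar transport subunit IFT88 (−0.87) were not called.

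Of 10 chromatin regulators 5 were lower (50%) and 0 higher, against 23.2% and 8.37% of all named genes (median −0.88). ATRX, a remodeller of repeats and telomeres, had 18.2 CPM in NTC, 7.26 CPM in shHKDC1 and 10.5 CPM in shRBBP5 (log2 −1.33 [−1.56 to −1.09]). The histone acetyltransferase KAT6B (12.8, 4.62 and 8.91 CPM, −1.47 [−1.77 to −1.18]), the remodeller CHD9 (−1.08), the methyl-lysine reader L3MBTL1 (−1.27) and ARID4A (−1.57) were the other 4. BOD1L1, which associates with the SET1B methyltransferase complex and was the one H3K4 methyltransferase gene with rows, was not called (10.0, 6.21 and 6.94 CPM, −0.69 [−0.96 to −0.43]).

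DNA replication and repair had 4 lower (50%) and 0 higher of 8 (median −1.08), against 23.2% and 8.37% of all named genes. They were the helicase BRIP1 (10.1, 4.16 and 6.81 CPM, log2 −1.27 [−1.58 to −0.96]), ERCC6, which recovers transcription at damaged DNA (−1.22), and the translesion polymerases REV3L (7.72, 2.26 and 5.86 CPM, −1.77 [−2.21 to −1.38]) and POLI (−1.33). Mitosis and centrosome genes had 4 lower (80%) and 0 higher of 5 (median −1.42), against the same shares of all named genes. They were led by the kinetochore motor CENPE at 10.0, 2.50 and 5.74 CPM (−2.0 [−2.42 to −1.64]). Of these 4, MYBL1 is also counted among the transcription factors and CEP152 among the cilium genes. The p53-induced SESN1 had 6.36, 2.33 and 9.0 CPM (−1.45 [−1.88 to −1.05]), while the other 4 measured genes of cell death and p53, BCL2L11 (0.43), BMF (−0.84), ZMAT3 (−0.98) and DAPK2 (0.13), were not called.

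RNA processing, decay and translation had 6 lower (37.5%) and 0 higher of 16, against 23.2% and 8.37% of all named genes (median −0.68). The 16 also take in a protein kinase and pseudogenes of ribosomal proteins, none of them called. ZC3H14, which binds poly(A) tails, was the called gene of highest CPM named here, at 46.3 CPM in NTC, 19.4 CPM in shHKDC1 and 44.1 CPM in shRBBP5 (log2 −1.25 [−1.39 to −1.11]). The tRNA methyltransferase TRMT10A had 4.14, 1.05 and 3.08 CPM (−1.98 [−2.62 to −1.39]). XRN1, the cytoplasmic 5′ exonuclease, was not called (−0.98 [−1.32 to −0.65]).

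Transcription factors that mark a lineage or respond to signals were called in both directions, 5 higher (16.7%) and 4 lower (13.3%) of 30 measured, against 8.37% and 23.2% of all named genes, with a median of 0.05. Beside RUNX1 and ETS1 the higher ones were HMX3, a homeobox gene (0.291, 3.89 and 0.0878 CPM, log2 3.72 [2.87 to 4.66]), the circadian repressor BHLHE41 (2.66 [1.94 to 3.54]) and the forkhead factor FOXQ1 (0.302, 2.62 and 0.201 CPM, 3.10 [2.28 to 4.13]). RUNX1, HMX3, BHLHE41 and FOXQ1 were under 1 CPM in both NTC and shRBBP5, so they passed the filter only through shHKDC1. ETS1, at 1.19 CPM in NTC and 0.570 CPM in shRBBP5, also owed its mean mostly to that library. The share of higher calls therefore depends on the filter. The lower factors were MYBL1 (8.43, 2.2 and 5.96 CPM, −1.94 [−2.36 to −1.53]), SIX4 (−1.65), GRHL1 (−1.08), an epithelial factor, and LHX1 (−1.06). FOXP1, at 11.5, 21.4 and 14.3 CPM, came close to a call (0.89 [0.71 to 1.06]).

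Zinc finger proteins, the largest list, had 5 higher (3.18%) and 17 lower (10.8%) of 157 measured genes, against 8.37% and 23.2% of all named genes (median −0.31), and the other 135 were neither. ZBTB38 (12, 5.27 and 9.30 CPM, −1.18 [−1.47 to −0.91]) and ZNF236 (11.3, 4.12 and 6.74 CPM, −1.46 [−1.78 to −1.16]) were lower members of high CPM. ZNF778 (24.7, 16.7 and 26 CPM, −0.57) and ZBTB44 (−0.19) had a higher CPM and were not called.

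Receptors and ligands included genes from both ends. Cytokine, interleukin and TNF family genes had 3 higher (23.1%) and 4 lower (30.8%) of 13 (median 0.22), against 8.37% and 23.2% of all named genes. IL21R, a lymphoid cytokine receptor, had 0.108 CPM in NTC, 3.69 CPM in shHKDC1 and 0.395 CPM in shRBBP5 (log2 5.04 [3.74 to 6.67]), on 5 fragments in NTC. CSF2RA, the GM-CSF receptor chain, had 0.719, 3.8 and 0.464 CPM (2.40 [1.79 to 3.0]), and the cytokine LIF 0.411, 2.80 and 0.0878 CPM (2.76 [2.0 to 3.60]). LIFR, the receptor of that cytokine, was at the opposite end at 2.67, 0.184 and 1.48 CPM (−3.83 [−5.44 to −2.52]), as was IL22RA1 at 1.89, 0.184 and 1.70 CPM (−3.34 [−4.95 to −2.01]). The ligand LIF was highest and its receptor LIFR lowest in shHKDC1 among the 3 libraries. LIF, IL21R and CSF2RA were under 1 CPM in both NTC and shRBBP5. They passed the filter only through shHKDC1, so their place there follows from the filter, and the share of higher calls depends on it.

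Receptor kinases and growth factors had 3 higher (27.3%) and 1 lower (9.09%) of 11 (median 0.15), against 8.37% and 23.2% of all named genes. Higher were the insulin receptor substrate IRS2 (2.09, 5.40 and 2.45 CPM, log2 1.36 [0.98 to 1.76]), the lymphatic growth factor receptor FLT4 (0.673, 3.22 and 0.238 CPM, 2.25 [1.61 to 2.88]) and PDGFRB (1.29). ROR1 was lower (−1.07). Of 15 G protein-coupled receptors the somatostatin receptors SSTR2 and SSTR5 (0.959, 3.02 and 0.458 CPM, 1.65 [1.1 to 2.23]) were the 2 higher (13.3%), and HTR6 (−1.74) and GPR155 (−1.14) the 2 lower (13.3%). Of 6 interferon-induced genes only OASL was called (1.67, 4.48 and 0.671 CPM, 1.42 [1.00 to 1.87]), with RIGI (0.14), TRIM56 (0.14) and CMPK2 (−0.38) not called.

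Adhesion, matrix and proteolysis genes were found on both sides, with 8 higher (18.6%) and 13 lower (30.2%) of 43, against 8.37% and 23.2% of all named genes (median −0.62). Higher were LAMB3, THBS1 and NT5E, and among those of highest CPM the axon guidance receptor ROBO3 (2.90 CPM in NTC, 8.41 CPM in shHKDC1 and 2.44 CPM in shRBBP5, log2 1.54 [1.21 to 1.86]). Lower were PLXNC1, the mucin-like FCGBP (12.6, 4.36 and 5.39 CPM, −1.53 [−1.84 to −1.24]), the desmosomal cadherin DSC3 (−1.1), PCDH9 (−1.52) and the epithelial cadherin CDH1 (5.09, 1.49 and 2.97 CPM, −1.77 [−2.33 to −1.29]). LAMA3, the partner chain of LAMB3 in laminin 332, was not called and lay on the other side of 0 (10.5, 5.91 and 7.96 CPM, −0.83 [−1.1 to −0.56]). Glycosylation enzymes had 4 higher (30.8%) and 2 lower (15.4%) of 13 (median 0.21), against 8.37% and 23.2% of all named genes. The higher ones were GCNT3, GALNT16 (1.21), CHST2 (1.33) and MGAT5B (1.02).

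In the Wnt and Hedgehog list (median −0.62) 2 of 8 were higher (25%) and 3 lower (37.5%), against 8.37% and 23.2% of all named genes. The 2 higher genes, SFRP1 and NKD1 (5.23, 11.5 and 6.38 CPM, log2 1.14 [0.89 to 1.4]), both encode inhibitors of Wnt signalling. DACT1, a further Wnt antagonist, was lower (5.46, 1.37 and 3.74 CPM, −1.99 [−2.52 to −1.46]), and the Wnt target AXIN2 was not called (−0.51 [−0.86 to −0.17]). Over all lists, 25 of the 30 with at least 5 measured genes had more lower than higher calls and 4 had more higher than lower, and 14 had 0 higher calls. This largely repeats the balance of all measured named genes, 235 lower and 85 higher. Some genes, such as MYBL1, EVC and NT5E, are on more than 1 list, so the lists are not separate observations. Higher members under 1 CPM in both NTC and shRBBP5, such as SFRP1, FLT4, SSTR5 and CLIC2, passed the filter only through shHKDC1. The shares of higher calls in their lists therefore depend on the filter. The lists covered 590 of the 1015 genes, and of the 425 on no list 40 were higher and 89 lower.

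Calls near the 2-fold limit depended on the scaling. With total counts the higher calls of NKD1 (0.86), GALNT16 (0.94) and MGAT5B (0.75) ended, and XRN1, ZMAT3, LAMA3, UNC13C, BMF, IFT88, PDK4 and RABGAP1L became lower calls. With upper-quartile scaling the lower calls of CHD9, DENND3, GRHL1, LHX1, ROR1, SYTL4 and TTBK2 ended, at ratios of −0.967 to −0.998. Removing the trend on transcript length ended those of ZC3H14 (−0.85), VPS13B (−0.75), CHD9, TTBK2, DSC3, PCDH9, GPR155 and ROR1, and brought FOXP1 to a higher call (1.09).

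**Figure D3:**
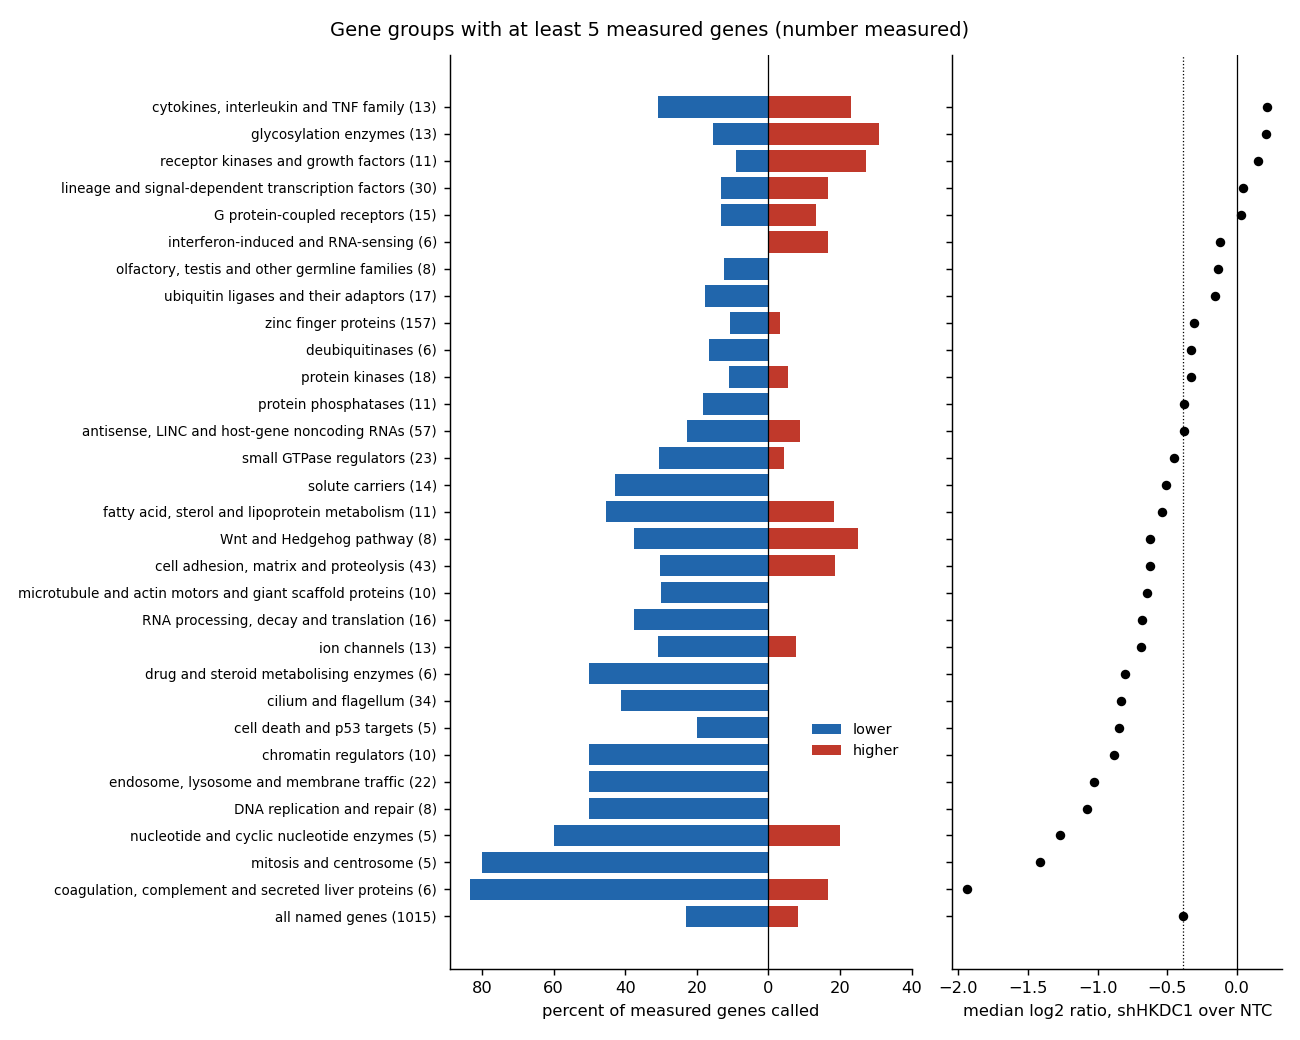
The left panel shows the percent of measured genes called lower (blue, to the left of 0) and higher (red, to the right) for the 30 lists with at least 5 measured genes and for all named genes, with the number measured in brackets. The right panel shows each list's median log2 ratio, with the dotted line at −0.39 for all named genes. Secreted liver proteins have the lowest median at −1.94, and cytokines the highest at 0.22.

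Some properties of the genes varied with the ratio. Of the 1015 genes, 969 had a transcript length, taken from the longest GENCODE transcript matched to their RefSeq rows. The median ratio was 0.02 in the quintile of genes with the shortest transcripts (491 to 2716 bases) and −0.62 in the quintile with the longest (7523 to 109224 bases), and lower calls made up 16.0% and 29.9% of these. The order was not even, since the middle quintile stood at −0.13 and the second at −0.39. The transcripts of lower genes had a median of 5299.5 bases, those of higher genes 3918 bases and the rest 4368.5 bases. Several lists with many lower calls held long transcripts, with medians of 8418 bases for chromatin regulators, 7014.5 for repair and 5822.5 for traffic, against 4473 for all named genes. Secreted liver proteins did not, with a median of 2346.5 bases. Removing a linear trend on transcript length left 75 of the 85 higher and 201 of the 235 lower calls.

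The ratio also varied with the level. Named genes had medians of −0.32 at 1 to 2 CPM, −0.34 at 2 to 5 CPM, −0.58 at 5 to 10 CPM and −0.38 at 10 to 30 CPM. Loci went from −0.22 at 5 to 10 CPM to 0.33 above 100 CPM. Higher calls among named genes fell from 12.8% at 1 to 2 CPM to 1.16% at 5 to 10 CPM, while lower calls stood at 23.3% and 24.4%. At 10 to 30 CPM, with 43 genes, 0 were higher and 11.6% lower. A gene high in 1 library and near 0 elsewhere has a low mean, so the filter on the mean and the direction of a call are not independent.

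**Figure D4:**
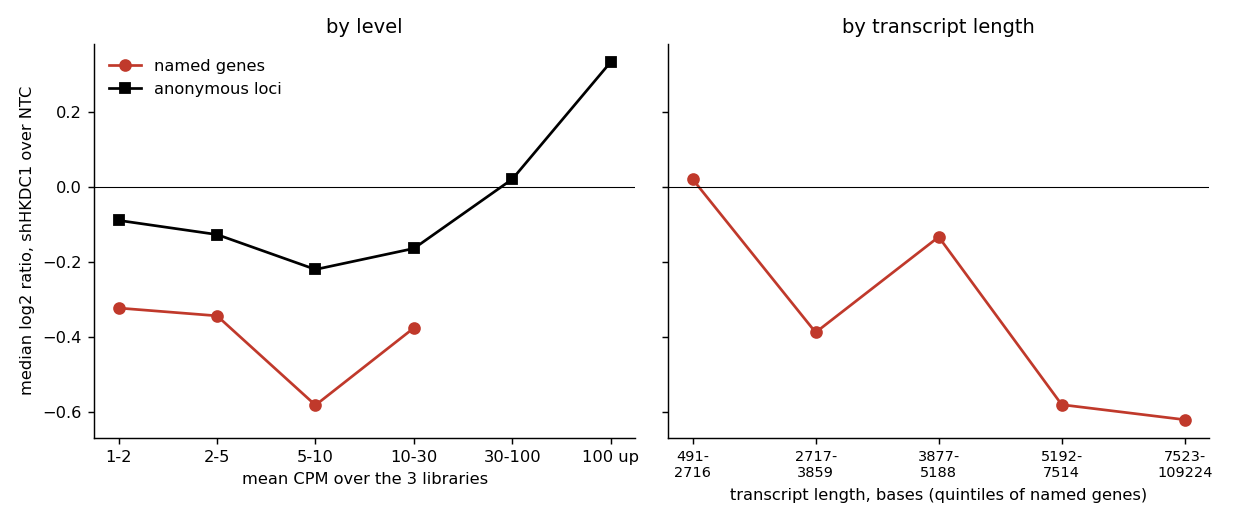
Median log2 ratio of shHKDC1 over NTC (y axis) by mean CPM over the 3 libraries (left, bins with at least 20 features) for named genes in red and anonymous loci in black, and by quintiles of transcript length for named genes (right). Loci cross 0 between 10 and 100 CPM and reach 0.33 above 100 CPM, and the longest named genes lie at −0.62.

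Among genes that are not protein coding, LINC00673 was higher (1.44 CPM in NTC, 4.47 CPM in shHKDC1 and 1.26 CPM in shRBBP5, log2 1.63 [1.19 to 2.11]). FRG1HP, a pseudogene transcript with near-identical relatives, was called at 1.12 [0.62 to 1.63], and its call ended with total-count scaling (0.84). SLC5A4-AS1 had 3.52, 0.406 and 5.00 CPM (−3.10 [−4.27 to −2.26]), and LINC00641 had 3.54, 0.90 and 2.09 CPM (−1.97 [−2.69 to −1.35]). LRRC37A6P (−2.25), BMS1P2-AGAP9 (−1.56) and LOC101929322 (−1.35) complete the lower end. These 3 belong to families of similar copies or pseudogenes, and whether reads were counted by strand is not given in the sources used here, so their values, and that of the antisense SLC5A4-AS1, are uncertain.

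Of the 12355 measured anonymous loci 980 were higher (7.93%) and 1371 lower (11.1%). Their median of −0.01 follows from the scaling, since loci are most of the features on which TMM centres the libraries. With total counts 543 were higher and 2290 lower, with a median of −0.28. They had a median level of 28.1 CPM against 2.60 CPM for named genes. Among the highest loci MSTRG.5833 had the highest CPM, at 87.5 CPM in NTC, 1594 CPM in shHKDC1 and 69.1 CPM in shRBBP5 (log2 4.19 [4.14 to 4.23]). MSTRG.775 had the highest CPM of the lowest loci, at 132 CPM in NTC, 11.5 CPM in shHKDC1 and 93.9 CPM in shRBBP5 (−3.52 [−3.69 to −3.35]). MSTRG.14354 (5.04), MSTRG.2141 (4.09), MSTRG.8533 (−5.08) and MSTRG.94 (−4.33) were the others of high CPM. No gene name was given to any of them, since the annotation of the build used, hg19, was not used here.

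A few loci were near empty in NTC or shHKDC1, and some of these also in shRBBP5. MSTRG.14046 had 0 units in NTC against 69.2 CPM in shHKDC1 and 36.0 CPM in shRBBP5, at least 1010-fold higher in shHKDC1 when NTC is set to its limit of 3 fragments (0.0685 CPM). MSTRG.3132 stood at 35.0 CPM in shHKDC1 on 1 fragment in each of the others (log2 10.37 [8.10 to 15.89]). MSTRG.14034 had 30.3 CPM in NTC, 1 fragment in shHKDC1 and 0 in shRBBP5 (−9.48 [−14.92 to −7.13]), and MSTRG.13795 had 15.5 and 29.3 CPM in NTC and shRBBP5 on 2 fragments in shHKDC1 (−7.58 [−10.69 to −5.79]).

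Such loci were close together in the numbering. In the bin of 500 numbers with the most calls, from 13501 to 14000, which was chosen by these values, 40 measured loci were higher and 23 lower. Thus 51.2% of its loci were called, against 18.7% of the 12232 with other numbers and 19% of all loci. In this bin 16 loci were at or under 3 fragments in NTC or shHKDC1, 11 of them at 0, while among all other loci 12 were, 7 of them at 0. Loci of the bin had a median level of 5.66 CPM, against 28.6 CPM elsewhere. What these numbers share was not tested.

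**Figure D5:**
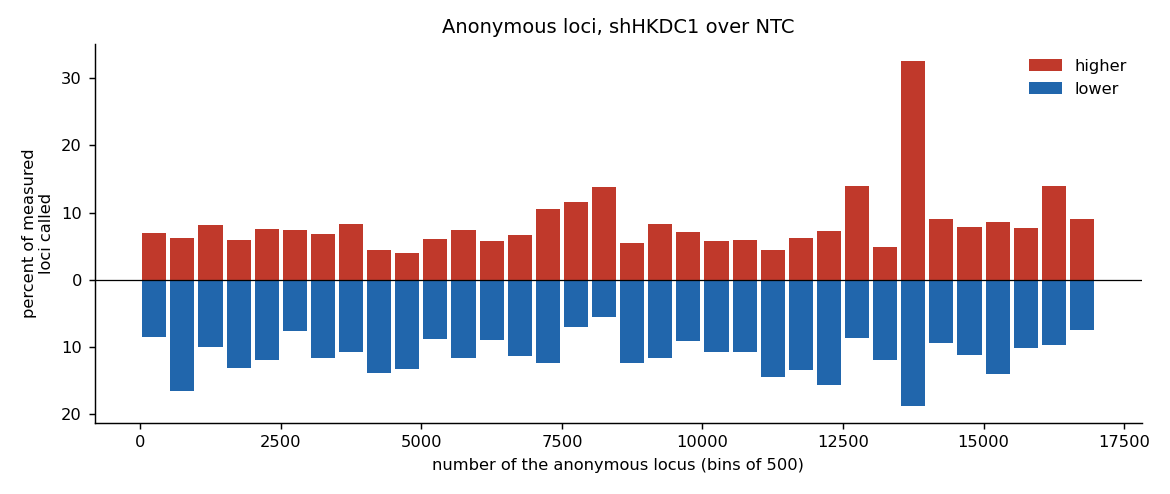
Percent of measured anonymous loci called higher (red, above 0) and lower (blue, below 0) in shHKDC1 against NTC, in bins of 500 assembly numbers (x axis). The bin from 13501 to 14000, where 51.2% were called, stands out.

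Most endothelial, fibroblast and immune markers had rows of their own, and 2 of 5 cholangiocyte markers did. Their summed levels per cell type and library were between 0.0564 and 1.91 CPM. All 6 endothelial markers were below the filter, with a summed level of 0.565 CPM in NTC, 0.910 CPM in shHKDC1 and 0.470 CPM in shRBBP5. Of 7 immune markers 5 had rows and 0 were measured (0.194, 0.310 and 0.0564 CPM summed). Of 8 fibroblast markers 6 had rows, and these summed to 0.953, 1.58 and 1.86 CPM. The 1 fibroblast marker that was measured, PDGFRB, was called higher (1.29). The cholangiocyte markers KRT7 and CFTR, 2 of 5, summed to 0.200, 1.91 and 0.150 CPM, so their level in shHKDC1 was in the range of the low genes named above, though neither reached a mean of 1 CPM. Of 17 hepatocyte markers only FGB had rows. The labels name no cells other than PLC. The part of any others in the matrix and cytokine receptor results above was not tested.

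A further 74 measured genes had only part of their RefSeq transcripts as rows, so their values cover that part alone. Among them 4 were called higher (5.41%) and 21 lower (28.4%). PER3, a circadian clock repressor, had 9.99 CPM in NTC, 3.07 CPM in shHKDC1 and 6.75 CPM in shRBBP5 (log2 −1.70). ITPR2, a calcium release channel (−1.65), ABCA4, a photoreceptor lipid transporter (−2.70), and KCNH2, a potassium channel (−1.73), were lower too. These 4 were named after their values were seen.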

How the data were processed

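Estimated counts per row were deposited for 1 NTC, 1 shHKDC1 and 1 shRBBP5 library, unscaled. The column names NTC, shHD and shRB were read as these groups. HISAT2 2.2.1, StringTie 1.3.4, DESeq2 1.28.1 and hg19 are named, per the submitters' processing notes, with no role or order. For the annotation, the counting tool and strand use, the entry is: not given in the sources used here.

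RefSeq rows were matched to symbols by accession (27357 of 27403) and summed per gene. Summing, the assumption that 4 units are 1 fragment, and the scaling of the pseudocount to library size were chosen after values had been seen. The last replaced a fixed pseudocount, which gave genes with 0 units in both libraries a ratio above 0. Low values peaked at 4 units, and each unit taken as 1 read was an alternative. TMM factors came from all 3 libraries with edgeR 4.0.16 (R 4.3.3). Ratios used a pseudocount of 0.5 units and exact Clopper-Pearson intervals in SciPy 1.17.1. The limit that a count of 0 allows was set at 3 fragments (12 units), which is 0.0685 CPM in NTC, 0.116 CPM in shHKDC1 and 0.0752 CPM in shRBBP5. Intervals and limits cover counting error only, since reads lacking molecular identifiers can be copies of 1 molecule. The script was tested on simulated data.

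The members and all gene lists were chosen with earlier results of these data known. Named are the 15 highest and 15 lowest called coding genes with a mean of at least 2 CPM, up to 5 noncoding genes each way at that level, and 5 loci each way at 10 CPM. In each list up to 6 called and 4 uncalled members by mean CPM are named, with hexokinases and H3K4 methyltransferase subunits. TXNIP, ARRDC4, THNSL1 and other genes outside these limits were chosen after their values were seen. Some genes that the rule takes in are not reported here. Alternatives were 3 other scalings, scaling from NTC and shHKDC1 alone, other filters, a pseudocount of 5 units and units taken as reads.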

Additional observations from a re-analysis of the deposited data

How the results depend on the processing

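Scaling decided how many features were called each way. With total counts the median ratio of named genes went to −0.67 and 14.5% of their calls were higher, against 26.6% with TMM, while 543 loci were higher and 2290 lower (median −0.28, 19.2% of calls higher against 41.7%). Total counts leave out the TMM factors, which lowers every ratio. With a mean CPM of at least 5, which tests fewer genes, 2 named genes were higher and 48 lower (median −0.51, 4% of calls higher), and 9 lists kept at least 5 measured genes, of which 9 had more lower than higher calls and 7 a median below 0. With no filter on mean CPM, named genes turned to 557 higher and 473 lower (54.1% of calls higher), with a median of 0, and 8 lists had a median below 0. A CPM of at least 1 in both libraries left 39 higher and 145 lower. Leaving RefSeq rows unsummed, a setting added after the data were seen, gave 214 higher and 405 lower rows.

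DESeq2 size factors kept 85 of the 85 higher and 220 of the 235 lower calls of named genes, upper-quartile scaling 85 and 198, scaling from NTC and shHKDC1 alone 83 and 217, and a pseudocount of 5 units 83 and 229. Of 157 features named in the text, 125 of them called, no ratio of a call changed sign under any of these settings in which it was measured. For the scalings and filters this was fixed in advance and is no support for the calls. A scaling shifts all ratios nearly alike, by less than the log2 ratio of 1 that a call needs, and a filter changes no ratio. Total counts ended 4 calls (NKD1, GALNT16, MGAT5B and FRG1HP) and made 8, upper-quartile scaling ended 7, and removing the length trend ended 8 and made 1. Scaling from NTC and shHKDC1 alone made 2, XRN1 (−1.003) and ZMAT3 (−1.001). No paired analysis was possible because each group is 1 library. With 1 library per group no replicate could be left out. Depth limits the low end, since 3 fragments correspond to 0.0685 CPM in NTC and 0.116 CPM in shHKDC1, so a gene at 0 in shHKDC1 could hold more RNA unseen than one at 0 in NTC.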

Other observations

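Below the filter of 1 CPM, 472 named genes met the 2-fold rule as higher in shHKDC1 and 238 as lower, the opposite balance to that of the measured genes. They have few fragments, and their calls are not among those counted above.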
